A study of Mus musculus with 29 samples.

Results

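Non-stroked brain tissue of Rag2-/- mice (3 samples) was compared with that of wild-type (WT) mice (4 samples). The members were chosen by their labels, genotype RAG or WT together with treatment Ctrl and the title prefix Imm2, and make up 7 of the 29 samples of the series. The comparison asks how far the cortex of mice without mature T and B cells differs from that of WT mice in the absence of a lesion, and how large a loss could have gone unseen for each cell type marker. Mice of both sexes at 3 months of age were used. WT mice were C57BL/6 from a commercial breeder and Rag2-/- mice, on a C57Bl/J background, were bred at the local animal facility, and the labels give no sex. Genotype and breeding source therefore cannot be told apart. None of the 7 samples carries a label of stroke or tacrolimus. The labels call the tissue brain, whereas the methods describe cortex of the site opposite to the lesion and the results naïve mice, so the samples are called non-stroked here. The other groups of the series are stroked mice of both genotypes, NSG mice (which also lack NK cells) with and without stroke, and stroked WT mice on tacrolimus.

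Rag2 and Rag1 together form the recombinase that cuts immunoglobulin and T cell receptor gene segments, and without it T and B cells stop at an early precursor stage. NK cells, monocytes, neutrophils, dendritic cells, microglia and border-associated macrophages do not need it and remain in Rag2-/- mice. The loss is present from birth in every cell, so it is not a depletion in the adult. In the parenchyma of the healthy brain lymphocytes are rare, and most reside in the meninges, the choroid plexus and the vessels.

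Total read counts ran from 38298061 to 40440384 in the WT and from 33504722 to 36880024 in the Rag2-/- libraries, and pairwise correlations of log2 CPM (reads per 1000000 reads of the TMM-adjusted library size) over genes from 0.995 to 0.998. No 2 libraries held identical values. The 7 libraries differed in tissue content and sex. WT 4 and WT 5 held choroid plexus RNA: Ttr, a thyroid hormone carrier made by that epithelium, had 27515 and 14238 reads there and 32 to 170 in the other 5 libraries. WT 3 held RNA of serotonin neurons, with 721 reads of Tph2, the enzyme that makes serotonin in the brain, against 35 to 62 elsewhere. Reads of 9 striatal genes summed to 1345 CPM in Rag2-/- 1 and to between 442 and 925 CPM in the others. The 4 Y-linked genes summed to between 3904 and 5499 reads in all WT libraries and Rag2-/- 4, and to 3 and 0 in Rag2-/- 1 and Rag2-/- 2, so genotype partly coincides with the presence of Y-linked reads and the 2 cannot be fully told apart. Results that moved with these libraries are given with and without them.

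**Figure D1:**
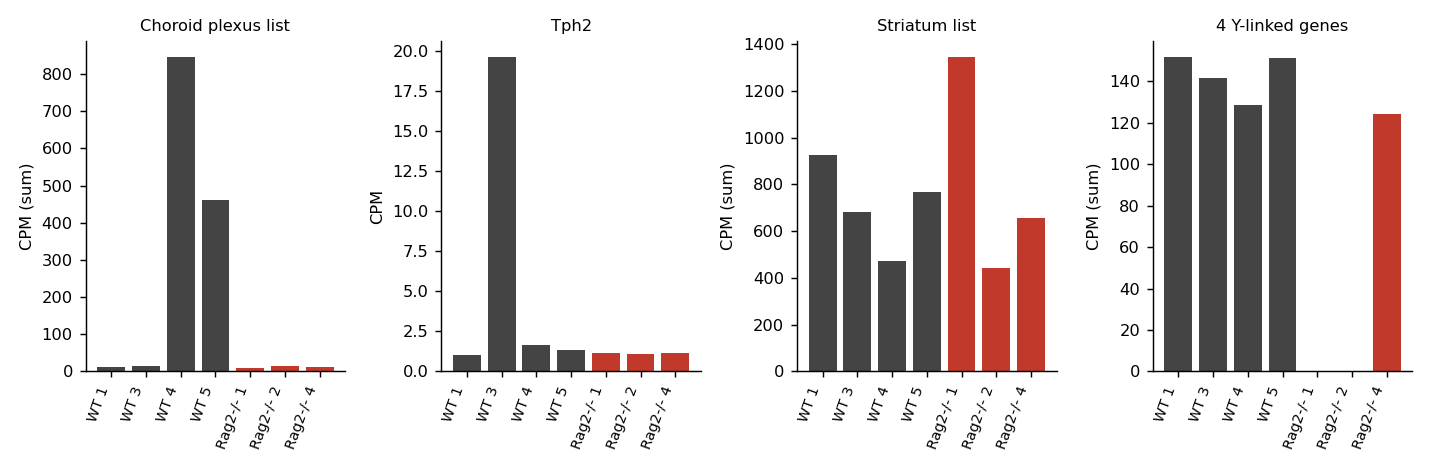
Summed CPM of the choroid plexus list (10 genes), CPM of Tph2, and summed CPM of the striatum list (9 genes) and of 4 Y-linked genes in each of the 7 libraries, WT in grey and Rag2-/- in red. Choroid plexus reads stand out in WT 4 and WT 5, Tph2 in WT 3, striatal reads in Rag2-/- 1, and Y-linked reads are at or near 0 in Rag2-/- 1 and Rag2-/- 2.

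The altered locus served as the check of the labels. Rag2 (chromosome 2, 101624718 to 101632529, plus strand, GRCm38) had 0 reads in all 7 libraries. A count of 0 allows up to 0.0205 CPM over the WT and 0.0301 CPM over the Rag2-/- libraries (3 reads per group, counting error only), so the gene itself could not separate the genotypes. The gene whose span contains Rag2 did. B230118H07Rik (101560781 to 101649532, minus strand), named Iftap or NWC in RefSeq, a protein-coding gene, runs across Rag2 on the opposite strand, and of its 12 annotated transcripts 4 start inside Rag2, 3 beyond its end and 5 before its start. The RefSeq start at 101629031 lies in an intron of Rag2, 291 bases before the exon that holds the Rag2 coding sequence. The windows from 250 bases before to 50 bases after each RefSeq start (GRCm38.p6) are printed because they show the promoters that share this locus. Capitals mark matches to ACTACNNTTCCC on either strand, a motif taken from the window inside Rag2, where it recurs on the opposite strand:
Rag2, chr2:101624462-101624761, plus strand: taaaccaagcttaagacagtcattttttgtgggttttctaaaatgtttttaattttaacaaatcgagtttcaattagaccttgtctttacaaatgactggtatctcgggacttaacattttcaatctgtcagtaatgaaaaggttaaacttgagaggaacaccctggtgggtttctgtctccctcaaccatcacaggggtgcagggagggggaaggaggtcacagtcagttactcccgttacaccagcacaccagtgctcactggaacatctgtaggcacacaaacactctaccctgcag
Iftap start inside Rag2, chr2:101628982-101629281, minus strand: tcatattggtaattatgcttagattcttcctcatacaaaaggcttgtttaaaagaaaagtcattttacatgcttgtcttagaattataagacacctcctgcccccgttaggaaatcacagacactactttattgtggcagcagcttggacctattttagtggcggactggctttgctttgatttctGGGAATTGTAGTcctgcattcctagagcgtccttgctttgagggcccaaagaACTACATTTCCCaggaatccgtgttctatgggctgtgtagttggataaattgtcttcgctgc
Iftap start before Rag2, chr2:101620997-101621296, minus strand: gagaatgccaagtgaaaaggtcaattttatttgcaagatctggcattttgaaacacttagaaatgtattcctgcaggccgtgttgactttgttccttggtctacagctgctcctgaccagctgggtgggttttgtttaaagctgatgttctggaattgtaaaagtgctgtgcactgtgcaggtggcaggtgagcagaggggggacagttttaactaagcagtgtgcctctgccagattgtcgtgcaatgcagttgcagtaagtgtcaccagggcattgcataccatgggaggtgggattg
The start inside Rag2 therefore has 2 matches, 1 on each strand, and the other 2 windows have 0. Of all 32851 RefSeq windows of this length, 1.04% held a match and 0.067% held at least 2. The motif was taken from the window inside Rag2, so these shares are no test of that window. A match is a description of the letters and not of a bound factor.

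Among 17031 genes tested with edgeR's quasi-likelihood test, 1 gene was called different with a Benjamini-Hochberg adjusted p under 0.05 and a change of over 1 on the log2 scale (0.00587% of the genes), and it was B230118H07Rik. Its reads numbered 533, 571, 580 and 535 in the WT libraries and 2, 3 and 0 in the Rag2-/- libraries. The groups were far apart, with at most 3 reads in any Rag2-/- library. Mean levels were 15.2 ± 0.36 CPM in WT (SD, n = 4) and 0.0493 ± 0.046 CPM in Rag2-/- mice (SD, n = 3), with a log2 fold change of -8.14 (SE 0.333, edgeR adjusted p = 6.07e-15). As a ratio of reads, the gene was 303-fold lower in Rag2-/- mice, with an exact 95% interval of 130 to 934 for counting error only. The two-sided exact permutation test over the 35 arrangements of 3 against 4 samples gave p = 0.0571, the smallest value it can give. The same gene had 2 to 4 reads in stroked Rag2-/- mice, 376 to 627 in stroked WT and 504 to 626 in non-stroked NSG mice, so the loss of reads went with the Rag2-/- genotype in samples outside the comparison as well.

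Rag1, the partner of Rag2, lies on the minus strand (101638282 to 101649501) and shares 80 exonic bases with B230118H07Rik. It had 14, 13, 5 and 17 reads in WT and 3, 8 and 5 in Rag2-/- libraries (log2 fold change -1.05, edgeR adjusted p = 1, unadjusted p = 0.018). The ranges overlapped, and reads of these genes on the same strand cannot be told apart where they share exons. No other gene that starts within 5 Mb before Rag2 was tested. On the other side, Traf6, an adaptor of Toll-like receptor signalling, had a log2 fold change of -0.20 (95% interval -0.39 to -0.01, edgeR adjusted p = 1), and Prr5l, Commd9 and Ldlrad3 had values from 0.01 to 0.08. Within 5 Mb of Rag2 38 genes were tested, of which 4 passed an unadjusted p below 0.05, all lower in Rag2-/- mice (10.5%, against 1.29% of all genes tested that were lower at that p). This share includes B230118H07Rik itself and Rag1, which shares exonic bases with it. The others were Traf6 and Caprin1 (log2 fold change -0.17). Leaving out B230118H07Rik and Rag1, the 36 genes ranged from -0.84 to 0.56.

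**Figure D2:**
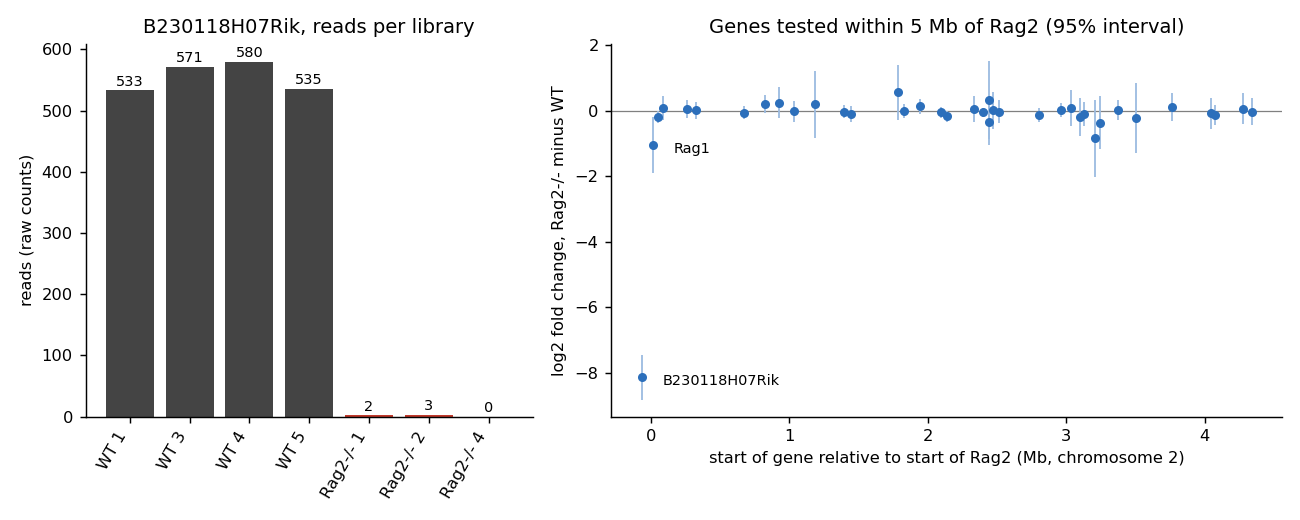
Left, raw reads of B230118H07Rik in each library, WT in grey and Rag2-/- in red. Right, log2 fold change (Rag2-/- minus WT) with its 95% interval for the 38 genes tested within 5 Mb of Rag2, against the distance of each gene's start from that of Rag2. B230118H07Rik sits at -8.14, Rag1 at -1.05, and the others lie between -0.84 and 0.56.

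Beyond this locus the genotypes could not be told apart gene by gene. No other gene had an adjusted p below 1 in edgeR's test, and 349 genes passed an unadjusted p below 0.05 (130 higher and 219 lower in Rag2-/- mice), where 852 would be expected from uniform p-values. The groups did not overlap for 1608 genes (9.44%), 685 higher and 923 lower. Over all genes the median log2 fold change was -0.01. The fit shares its estimate of the spread with the stroked groups. A fit of the 7 compared libraries alone called the same gene and gave 1416 of 15882 genes at an unadjusted p below 0.05, where 794 would be expected, and its next smallest edgeR adjusted p was 0.131.

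What these data could have shown is given by the 95% interval of each log2 fold change. The median margin of the interval on either side was 0.32 on the log2 scale, or 1.24-fold, and 82.8% of the genes (14071 of 17004 with an interval) had both ends inside 2-fold, 67.4% inside 1.5-fold. Precision was lowest for genes with few reads. In the lowest of 5 equal classes of expression (median 0.382 CPM) the median margin was 0.96, and 29.1% of the genes lay inside 2-fold, whereas in the highest class (median 138 CPM) the margin was 0.24, and 99.3% did. A single changed gene at the median SE would have needed a 1.89-fold change to pass the adjusted p, below the 2-fold that a call also asks for, and a 6.90-fold change in the lowest class. The fit of the 7 libraries alone had a median margin of 0.19 and 92.2% of its genes inside 2-fold. These intervals hold for each gene on its own and are not adjusted for the number of genes.

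**Figure D3:**
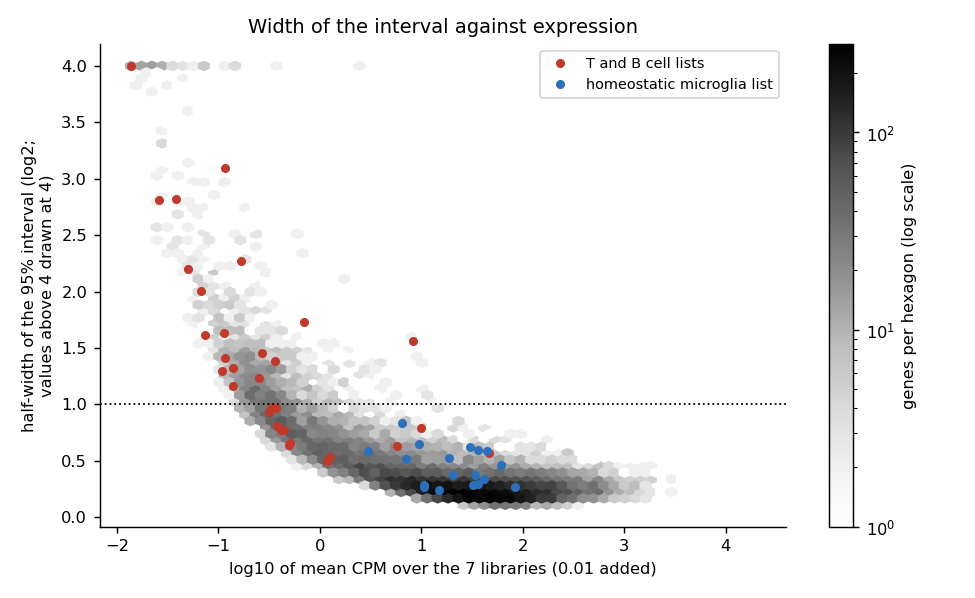
Margin of the 95% interval of the log2 fold change against mean expression (log10 CPM) for the genes tested; grey hexagons give the number of genes, red points the T and B cell lists and blue points the homeostatic microglia list. The dotted line marks a margin of 2-fold, above which most T and B cell genes under 1 CPM lie.

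The CD3 and CD8 genes that define T cells were at or near the detection limit in both genotypes. Cd3e, an invariant chain of the T cell receptor complex, had 2, 1, 1 and 4 reads in WT and 1, 1 and 0 in Rag2-/- libraries. Cd3d had 0 reads in all 7 libraries, Cd3g 1 read in WT 4 alone, and Cd8a and Cd8b1, the coreceptor of cytotoxic T cells, 0 to 2 and 0 to 1 reads. No library of either group thus had more than 4 reads of any of these 5 genes. In stroked WT mice the same genes had more reads (Cd3e 5 to 28, Cd3d 3 to 10, Cd8a 1 to 32), and in stroked Rag2-/- mice 0 to 2 of each. For Cd3e the ratio of reads was 0.366 with an exact 95% interval of 0.0379 to 1.83, for counting error only, which leaves room for anything between a 96.2% fall and a rise. The interval of the log2 fold change, which also holds the spread between libraries, ran from -3.50 to 0.90. The upper end of the Poisson interval on the pooled WT level, again for counting error only, was 0.108 CPM for Cd3e, 0.0799 CPM for Cd8a and 0.0382 CPM for Cd3g, while WT 5 alone held Cd3e at 0.110 CPM. In bulk tissue, fewer cells of a type and less RNA per cell cannot be told apart.

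The 5 most abundant genes of the T cell list, Trbc2, Cd4, Cd6, Zap70 and Lck, had 95% intervals that held 0 in the fit of all 29 libraries. Trbc2, a constant segment of the T cell receptor beta chain, had 303, 391, 349 and 265 reads in WT and 353, 325 and 414 in Rag2-/- libraries (8.95 ± 1.39 and 11 ± 1.86 CPM, log2 fold change 0.30, 95% interval -0.49 to 1.09). Cd6, a costimulatory receptor, had 186, 178, 217 and 151 reads in WT and 245, 246 and 189 in Rag2-/- libraries (log2 fold change 0.44, 95% interval -0.19 to 1.07), and its CPM did not overlap between the groups, as for 9.44% of all genes. In the fit of the 7 libraries alone the edgeR intervals lay above 0, from 0.16 to 0.74 for Cd6 and from 0.0013 to 0.61 for Trbc2. Cd4, the coreceptor of helper T cells, had 338, 279, 128 and 295 reads in WT and 626, 119 and 239 in Rag2-/- libraries. The ranges overlapped. Its level was highest where that of the striatal dopamine receptor Drd2 was highest (17.7 and 41.9 CPM in Rag2-/- 1) and low where Drd2 was low (3.39 and 8.22 CPM in WT 4, 3.62 and 8.05 CPM in Rag2-/- 2), and the part of striatal tissue in this was not tested. Trac, the constant segment of the T cell receptor alpha chain, had 18, 26, 14 and 20 reads in WT and 15, 13 and 14 in Rag2-/- libraries (log2 fold change -0.34, 95% interval -0.98 to 0.30), which overlapped. Cd247, the zeta chain of the complex, had 1 to 6 and 2 to 6 reads. Lck and Zap70, kinases of T cell receptor signalling, had 32 to 48 and 39 to 55 reads in WT and 41 to 47 and 37 to 43 in Rag2-/- libraries. Reads of these genes were therefore present in mice that form no mature T cells.

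Of the 23 genes of the T cell list 20 could be tested, 0 were called and 2 passed an unadjusted p below 0.05, both higher in Rag2-/- mice (0.763% of all genes did so). They were Lat, an adaptor of T cell receptor signalling (12, 18, 4 and 17 reads against 25, 27 and 17), and the costimulatory receptor Icos (1, 5, 3 and 2 against 7, 7 and 6). The median log2 fold change of the members tested was 0.35, against -0.01 over all genes. The summed reads of the list, mostly of Cd4, Trbc2 and Cd6, gave a log2 fold change of 0.35 (95% interval -0.16 to 0.86), so that the largest fall inside the interval was 10.2%. Without Rag2-/- 1 the value was 0.17 (95% interval -0.40 to 0.74). In the fit of the 7 libraries alone the interval ran from 0.07 to 0.66. Non-stroked NSG mice, which lack mature T cells, also had reads of Cd4, Trbc2 and Cd6. Pooled levels there were 19.5, 7.81 and 3.75 CPM, against 7.12, 8.96 and 5.01 CPM in non-stroked WT mice. The 10.2% therefore bounds mainly the reads of these genes and not a loss of T cells.

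Several defining B cell genes were likewise near 0, while Cd79a had 7 to 10 reads in WT and 4 to 15 in Rag2-/- libraries. Cd79b had 1 to 10 and 3 to 4 reads, and Cd22 1 to 11 and 4 to 7. Ms4a1 (CD20), a surface protein of B cells, had 0 to 1 reads in all libraries, and Blk, Fcer2a and Iglc1 had 0. Igkc, the constant segment of the kappa light chain, had 5, 2, 5 and 8 reads in WT and 0, 3 and 3 in Rag2-/- libraries (ratio 0.439, exact 95% interval 0.144 to 1.13). The ranges overlapped at 2 to 3 reads, and a fall of up to 85.6% lay inside this interval, which covers counting error only. The interval of the log2 fold change, which also holds the spread between libraries, ran from -4.23 to 1.96 and reached a fall of 94.7%. In stroked mice Igkc had 24 to 158 reads in WT and 1 to 3 in Rag2-/- libraries. Ighm, the heavy chain constant region of IgM, was the gene of either list with the most reads, at 1639, 1671, 1747 and 1504 in WT and 1647, 1491 and 1759 in Rag2-/- libraries (44.9 ± 2.46 and 49.3 ± 5.75 CPM, log2 fold change 0.13, 95% interval -0.44 to 0.71). Its groups overlapped, and a fall of more than 26.3% lay outside the interval. Ighd had 9 to 17 and Jchain, which joins IgM and IgA into polymers, 8 to 18 reads in WT, against 12 to 14 and 10 to 13 in Rag2-/- libraries. Pax5, a transcription factor of B cells that is also used in the midbrain, was lower at an unadjusted p of 0.00605 (edgeR adjusted p = 1), and 132 of its 156 WT reads came from WT 3, the library with serotonin neuron RNA, while the other WT libraries had 5, 9 and 10 and the Rag2-/- libraries 1, 10 and 7. Of the 21 genes 12 were tested and 0 called, and 1, Pax5, passed an unadjusted p below 0.05 (1.29% of all genes did so in that direction). The summed list, mostly reads of Ighm, gave a log2 fold change of 0.10 (95% interval -0.42 to 0.62), a largest fall of 25.5%. With the replicate number as a block it turned to -0.19 (95% interval -0.77 to 0.40). The value rose to 0.23 with Ddx3y as a covariate and to 0.29 without Rag2-/- 1 and 2. Ighm was also read in non-stroked NSG mice, which lack mature B cells (pooled 38.2 CPM, against 44.9 CPM in WT). The 25.5% therefore bounds mainly the reads of Ighm and not a loss of B cells.

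**Figure D4:**
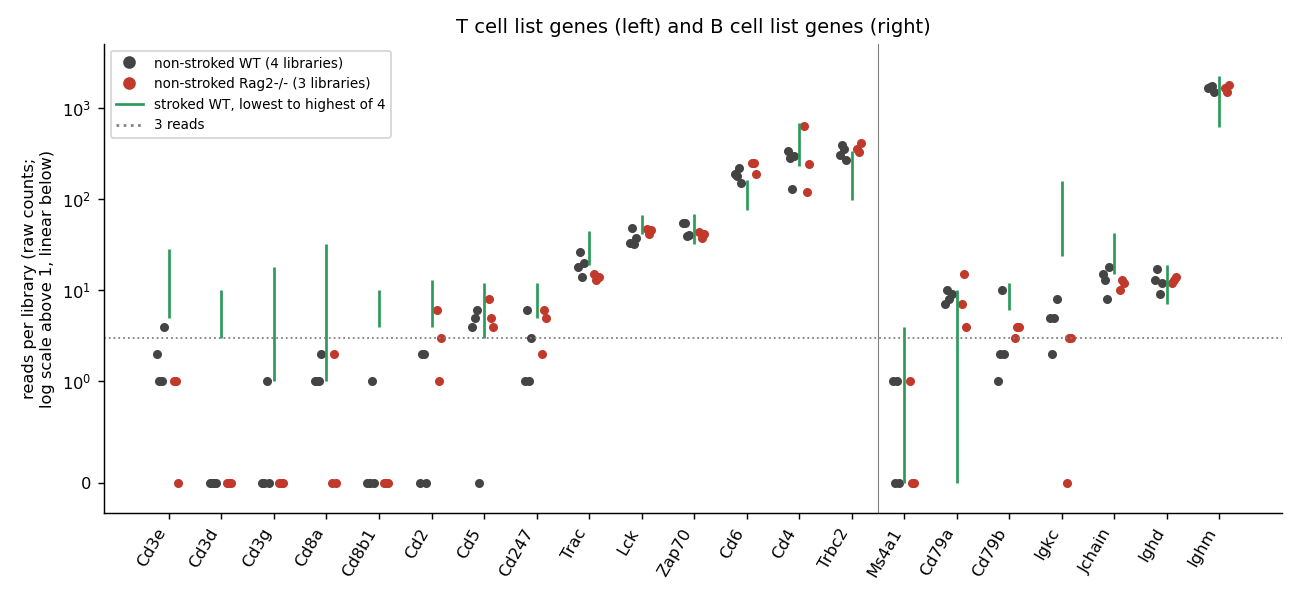
Raw reads per library of genes of the T cell list (left of the line) and of the B cell list (right) in non-stroked WT (grey) and Rag2-/- (red) mice, on an axis that is linear below 1 and logarithmic above; green lines span the 4 stroked WT libraries and the dotted line marks 3 reads. Cd3e, Cd3d, Cd3g, Cd8a, Cd8b1 and Ms4a1 lie at 0 to 4 reads in both genotypes, and Cd6, Cd4, Trbc2 and Ighm lie above 100 reads in both.

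Antigen receptor genes hold the variable, diversity and joining segments that the recombinase joins. Of 476 such genes 67 had a read, 8738 in the WT and 6626 in the Rag2-/- libraries, or 59.9 and 66.5 CPM (ratio 1.11, exact 95% interval 1.08 to 1.15). Ighm held 74.6%, Trbc2 15.6% and Ighg2c 5.34% of them. Variable segments had 25, 22, 13 and 15 reads in WT and 21, 13 and 16 in Rag2-/- libraries (ratio 0.976, exact 95% interval 0.668 to 1.41), and the groups overlapped. Without Ighm, Trbc2 and Ighg2c, 425 reads in WT stood against 260 in Rag2-/- libraries (2.91 and 2.61 CPM, ratio 0.896, exact 95% interval 0.765 to 1.05), so that a fall of up to 23.5% was possible. The same sum was 8.12 CPM in stroked WT, 2.61 CPM in stroked Rag2-/- and 2.62 CPM in non-stroked NSG mice. These intervals cover counting error only and not the spread between mice. Of the list of recombination and end-joining genes, 13 of 15 were tested and 1, Rag1, the neighbour of Rag2 described above, was lower at an unadjusted p below 0.05 (1.29% of all genes were), and the sum had a log2 fold change of 0.00 and a largest fall of 9.35%.

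Leukocytes that do not need Rag2 were measured with tighter bounds where their genes are shared with microglia. The pan-leukocyte list was at 114 ± 6.7 CPM in WT and 125 ± 9.22 CPM in Rag2-/- mice (log2 fold change 0.13, 95% interval -0.24 to 0.50), with a largest fall of 15.2%. With Ddx3y as a covariate the sum turned to -0.061 (95% interval -0.41 to 0.29), and without Rag2-/- 1 and 2 it was 0.26. All 11 members were tested and 0 passed an unadjusted p below 0.05, against 2.05% of all genes. Ptprc (CD45), the common surface phosphatase of leukocytes, had 93, 93, 115 and 112 reads in WT and 131, 92 and 91 in Rag2-/- libraries. Coro1a, an actin regulator, had 1808, 1889, 2218 and 2059 reads against 1949, 1998 and 2235, with a largest fall of 9.06%. The NK and innate lymphoid list rested on 4 to 14 reads per library and allowed a fall of 70.6% and a rise of 335%. Of its 12 genes 5 were tested, and 1, Klrd1, was higher at an unadjusted p of 0.031 (0.763% of all genes were higher at p below 0.05), with 0 reads in WT and 2, 1 and 1 in Rag2-/- libraries. The neutrophil and monocyte list, with 14 to 65 reads, allowed a fall of 58.8%, and its reads were highest in WT 4 and WT 5; without these libraries its log2 fold change was 0.84 in place of -0.05.

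Antigen presentation and interferon genes, which respond to cytokines of T and NK cells, did not differ detectably. MHC class II and dendritic cell genes summed to 27.3 ± 2.33 CPM in WT and 28.2 ± 2.72 CPM in Rag2-/- mice (log2 fold change 0.05, 95% interval -0.77 to 0.86, and -0.27 with Ddx3y as a covariate). Cd74, the invariant chain of MHC class II, had 56, 110, 113 and 99 reads in WT and 85, 120 and 86 in Rag2-/- libraries. MHC class I genes summed to 189 ± 6.2 and 191 ± 0.987 CPM, with a largest fall of 27.4% (log2 fold change 0.02, and -0.16 with Ddx3y as a covariate), and B2m, the light chain of MHC class I, had a log2 fold change of 0.00 (SE 0.236, 95% interval -0.49 to 0.48). Of the 18 interferon-stimulated genes 16 had a higher and 2 a lower estimate, where 48% of all genes had a higher one. None passed an unadjusted p below 0.05 (2.05% of all genes did). Their median log2 fold change was 0.23, and the largest fall of the sum was 27.5%. In the fit of the 7 libraries alone the largest falls were 8.89% for MHC class II, 5.53% for MHC class I and 2.41% for interferon-stimulated genes. The interferon-stimulated sum turned from 0.11 to -0.21 (95% interval -0.77 to 0.35) with Ddx3y as a covariate and to -0.077 without Rag2-/- 1 and 2. Usp18, an interferon-induced protease, had the largest estimate (0.52, 95% interval -0.54 to 1.58), with 21, 17, 13 and 18 reads in WT and 25, 27 and 16 in Rag2-/- libraries. The list sum was 63.0 and 63.6 CPM in Rag2-/- 1 and 2, the libraries without Y-linked reads, and 51.6 CPM in Rag2-/- 4, below the 4 WT libraries (54.0 to 56.8 CPM). The part of sex in this was not tested. Lymphocyte cytokines were barely read. Ifng, the interferon of T and NK cells, had 1 read in WT 1 and Il17a and Il10 had 0 in all libraries. The 2 members tested had higher estimates in Rag2-/- mice. Tnf had 1, 1, 0 and 1 reads in WT and 4, 2 and 1 in Rag2-/- libraries (log2 fold change 1.59, 95% interval -0.46 to 3.64). Its CPM did not overlap between the groups, as for 9.44% of all genes. Lta had 6, 2, 5 and 6 reads against 6, 5 and 6 (log2 fold change 0.38, 95% interval -0.65 to 1.41). The list sum allowed a fall of 26.9% and a rise of 73.5%. Of the 16 genes of the list of receptors for lymphocyte cytokines, 14 had over 3 reads in each WT library. Ifngr1 had 381 to 462 reads in WT and 364 to 424 in Rag2-/- libraries, whereas Il22ra1 had 0 to 4 and 1 to 6. The receptor list allowed a fall of 15.5% and 14 of its 16 members lay inside 2-fold.

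The homeostatic microglia list was at 488 ± 35.5 CPM in WT and 524 ± 17.7 CPM in Rag2-/- mice (log2 fold change 0.10, 95% interval -0.31 to 0.51), and 17 of its 18 genes had a higher estimate in Rag2-/- mice and none passed an unadjusted p of 0.05, where 48% of all genes had a higher estimate and 2.05% passed. With Ddx3y, a Y-linked gene, as a covariate the sum turned to -0.12 (95% interval -0.51 to 0.27). In the fit of all 29 libraries without it, a fall of more than 19.1% lay outside the interval, and of more than 1.43% in the fit of the 7 libraries alone. Tmem119, a membrane protein of resident microglia, had 485, 424, 569 and 566 reads in WT and 535, 525 and 530 in Rag2-/- libraries (log2 fold change 0.19, 95% interval -0.05 to 0.43). P2ry12, the purinergic receptor of surveying microglia, had 1352, 992, 1265 and 1056 reads against 1167, 1005 and 1099 (log2 fold change 0.04), and Csf1r, the receptor on which microglia depend, 2780 to 3306 against 2782 to 3068 (log2 fold change 0.11). Each of these pairs of ranges overlapped. Aif1, which encodes Iba1, had the highest estimate of the list (0.43, 95% interval -0.15 to 1.02), and Sall1 the only one below 0 (-0.04). Activated microglia genes summed to 456 ± 36.4 and 453 ± 14.7 CPM (log2 fold change -0.01), with a largest fall of 37.5%, or 9.25% in the fit of the 7 libraries alone. With Ddx3y as a covariate the value was -0.36 (95% interval -1.01 to 0.28). Cst7 and Clec7a, which mark disease-associated microglia, had 1 to 9 and 1 to 12 reads over the 7 libraries. Border-associated macrophage genes (log2 fold change 0.03) allowed a fall of 31.8%, or 10.3% in the fit of the 7 libraries alone. Their value was -0.25 (95% interval -0.83 to 0.34) with Ddx3y as a covariate and 0.19 with the replicate block. Mrc1 (CD206) had 67, 163, 114 and 108 reads in WT and 127, 132 and 146 in Rag2-/- libraries.

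**Figure D5:**
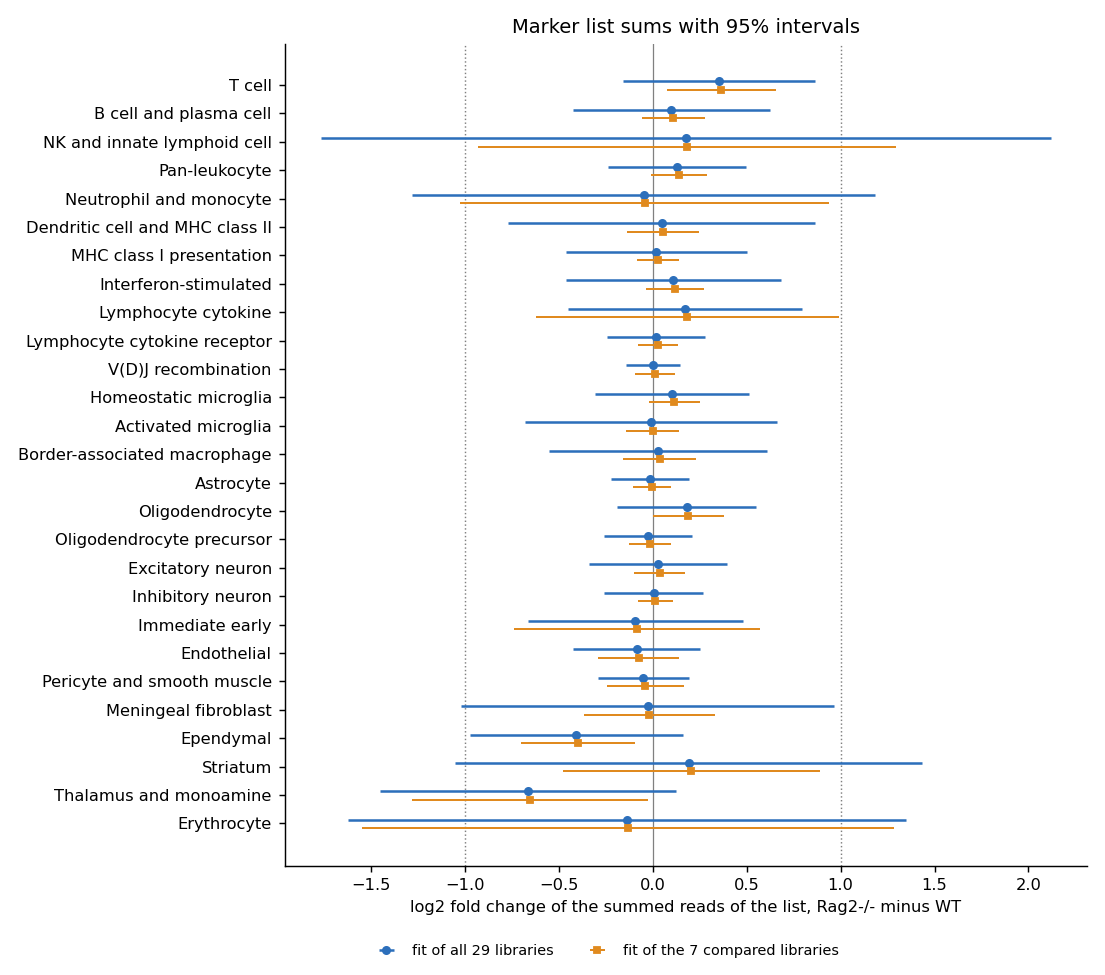
Log2 fold change (Rag2-/- minus WT) of the summed reads of 27 marker lists with 95% intervals, from the fit of all 29 libraries (blue) and of the 7 compared libraries (orange); dotted lines mark 2-fold, and the choroid plexus and Y-linked lists are left out. Most sums lie near 0 with both ends inside 2-fold, while 6 lists (NK, neutrophil, striatum, erythrocyte, thalamus and monoamine, meningeal fibroblast) reach beyond it in the blue intervals.

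Glial, neuronal and vascular lists had log2 fold changes between -0.09 and 0.18. Astrocyte genes summed to 7035 ± 386 CPM in WT and 6968 ± 155 CPM in Rag2-/- mice, with a largest fall of 14.3%, and Gfap, the intermediate filament that marks reactive astrocytes, had 4714, 3750, 6101 and 6256 reads in WT and 3961, 5249 and 5181 in Rag2-/- libraries. Excitatory and inhibitory neuron lists had log2 fold changes of 0.03 and 0.00 and largest falls of 21% and 16.4%. The excitatory value was 0.26 with Ddx3y as a covariate and -0.084 with the replicate block, and the inhibitory value 0.10 with the block and -0.032 without WT 4 and WT 5. Endothelial and pericyte lists had log2 fold changes of -0.08 and -0.05, with largest falls of 25.3% and 18.3%. All members of these 5 lists had intervals inside 2-fold. The endothelial sum was lowest in Rag2-/- 4 (268 CPM, against 328 to 373 CPM in the other 6 libraries). Without Rag2-/- 1 and 2, where Rag2-/- 4 is the only library of its arm and is assumed to vary like the other groups, the endothelial value was -0.37 (95% interval -0.86 to 0.13) and the pericyte value -0.27 (95% interval -0.62 to 0.07). With Ddx3y as a covariate the endothelial value was -0.40 (95% interval -0.63 to -0.16), and without Rag2-/- 4 it was 0.04. Leaving out 1 sample gave pericyte values from -0.13 to 0.053. Oligodendrocyte genes summed to 5766 ± 746 and 6533 ± 211 CPM (log2 fold change 0.18, largest fall 12.3%), with no overlap between the groups. The interval of the fit of the 7 libraries alone ran from 0.0038 to 0.38, and without WT 3 the log2 fold change was 0.093. Here Mbp, a main protein of myelin, had 60565 reads in WT 3 and 100486 to 105480 in the other 6 libraries. Immediate early genes, which follow neuronal activity, varied within both groups: Arc had 6664, 17510, 35986 and 17514 reads in WT and 14420, 27752 and 9514 in Rag2-/- libraries, and the list (log2 fold change -0.09) allowed a fall of 36.8%. It was -0.49 without Rag2-/- 2 and 0.21 without WT 4.

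All 10 choroid plexus genes were lower in Rag2-/- mice and 8 passed an unadjusted p below 0.05 (edgeR adjusted p = 1), where 1.29% of all genes were lower at that p, with 333 ± 402 CPM in WT and 11.7 ± 2.48 CPM in Rag2-/- mice. Without WT 4 and WT 5 the log2 fold change went from -4.83 to -0.17. Tph2, Slc6a4 and Ddc, genes of serotonin neurons, passed an unadjusted p below 0.05 through WT 3 (Slc6a4 502 reads in WT 3 and 0 to 3 elsewhere). Ependymal genes, of the cells that line the ventricles, were lower in all 6 members without passing (log2 fold change of the sum -0.41, 95% interval -0.97 to 0.16). The interval was -0.70 to -0.10 in the fit of the 7 libraries alone and -1.18 to -0.0012 with Ddx3y as a covariate, and the value was -0.18 without WT 4 and WT 5. The part of dissection in these values was not tested.

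The genes with the 5 smallest p-values in each direction were examined, of which B230118H07Rik is 1 of the lower ones. Among higher genes these were Pter, Ankrd61, Tmem150b, Gm49727 and Gja6, with unadjusted p from 0.000587 to 0.00366 and edgeR adjusted p = 1. Tmem150b, a membrane protein gene on chromosome 7, had 13, 14, 13 and 12 reads in WT and 48, 48 and 27 in Rag2-/- libraries (log2 fold change 1.77, 95% interval 0.75 to 2.80), with no overlap. Pter had 47, 45, 60 and 60 reads in WT and 122, 107 and 46 in Rag2-/- libraries, high only in the 2 libraries without Y-linked reads. Without Rag2-/- 4 it was called (log2 fold change 1.20, edgeR adjusted p = 0.0417). The other 4 lower genes were Gzmk, Slc6a4, Zfp68 and Tph2. Gzmk, a granzyme of cytotoxic lymphocytes, had 11, 12, 15 and 8 reads in WT and 1, 2 and 7 in Rag2-/- libraries (the lowest WT and the highest Rag2-/- library overlapped in CPM, log2 fold change -1.60, SE 0.443, 95% interval -2.51 to -0.69, edgeR adjusted p = 1), while Cd3e and Cd8a were at 0 to 4 reads in the same libraries. Zfp68, a zinc finger gene, had 1227, 1334, 1392 and 1441 reads against 1062, 1038 and 958 (log2 fold change -0.27), without overlap in CPM. The values of Slc6a4 and Tph2 moved with WT 3 and that of Pter with the presence of Y-linked reads, and the part of either in these results was not tested.

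Of the 29 lists 21 had a summed interval inside 2-fold and 12 inside 1.5-fold in the fit of all 29 libraries. In the fit of the 7 libraries alone 23 and 18 lists did. Of the 303 list members with an interval in the fit of all 29 libraries, 174 (57.4%) lay inside 2-fold, against 82.8% of all genes. Single genes had an interval inside 2-fold for all members of the astrocyte, oligodendrocyte, oligodendrocyte precursor, neuron, endothelial and pericyte lists and for 16 of 18 homeostatic microglia genes. They did so for 5 of 14 activated microglia, 4 of 8 border-associated macrophage and 4 of 9 meningeal fibroblast genes, and for 4 of the 20 T cell and 3 of the 12 B cell genes tested.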

How the data were processed

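RNA of 29 samples was sequenced, of which 7 are compared here. According to the study's methods, RNA was extracted with TRIzol and a column kit with DNase, polyA RNA was selected and stranded libraries were prepared, and alignment and counting were done at a sequencing facility. The aligner, its genome build and the use of strand in counting are not given in the sources used here. The authors deposited raw, unnormalized read counts per Ensembl gene, 25746 genes per sample, of which 25712 were found in GENCODE M21 (GRCm38) for names and positions.

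Counts of all samples were fitted in R 4.3.3 with edgeR 4.0.16 (TMM normalization, filterByExpr by group, quasi-likelihood test, 8 groups), and 17031 genes were tested with Benjamini-Hochberg adjustment. The SE is the absolute log2 fold change divided by the square root of F, and the 95% interval uses the t quantile at the total degrees of freedom. No interval was given for genes whose F did not allow a square root. List sums were added to the fit as single features for their interval only. The largest fall is the lower end of the interval as a percent. Ratios of reads use TMM-adjusted library sizes and exact conditional binomial intervals. Nothing in the labels says how the samples of a group were obtained beyond separate sample names, so p-values measure the spread between these samples. The members, lists and tests were chosen with earlier results of these data known. Named genes are those of the Rag2 locus, called genes, the 5 smallest p per direction, the most expressed members of the T and B cell lists, the highest and the extreme members of each other list, and the 5 tested genes nearest to Rag2. In addition to these, members were named for their known role. Promoter sequences are from RefSeq (GRCm38.p6), matched by symbol for Rag2 and Iftap.

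Alternatives were RLE normalization, no filter or a mean of at least 1 CPM, fits of the 7 compared, the 11 non-stroked or the Imm2 samples, a replicate block, DESeq2 1.42.0, limma 3.58.1 (voom), Ddx3y as a covariate and leaving out each sample. Leaving out WT 4 and WT 5, or Rag2-/- 1 and Rag2-/- 2, was chosen after seeing the data. The fit was tested on simulated counts with known changes. Xist was not analysed here. Not every list member is reported by itself here.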

Additional observations from a re-analysis of the deposited data

Results flagged for a closer look

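Within the 4 WT libraries, 9 of 124 list sums and named genes had a single library far from the other 3 (its gap to the nearest, as a share of the range, was above Dixon's 95% critical value, which chance exceeds in about 1 in 20 groups). In WT 3 these were the thalamus and monoamine list (86.6 CPM, next value 39.9), Tph2 (19.6 CPM, next value 1.64), Slc6a4 (13.7 CPM, next value 0.0825), Th, the first enzyme of dopamine synthesis (4.16 CPM, next value 1.64), Pax5 (3.59 CPM, next value 0.275) and Mbp (1648 CPM, below the next value of 2771). In WT 4 these were the activated microglia list (510 CPM, next value 443), its most abundant gene Ctsd, a lysosomal protease (344 CPM, next value 288), and the cytokine Tnf (0 reads, where the other 3 had 1 read each). The genes of WT 3 include markers of serotonin and dopamine neurons of the brainstem. Whether the dissection of this sample differed was not tested.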

How the results depend on the processing

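B230118H07Rik was called in all 19 alternatives, with a log2 fold change from -8.83 to -7.63, except without Rag2-/- 1 and 2, where the only library of that arm had 0 reads and the fitted value (-11.9) depends on the prior count. The spread of that lone library is assumed to be that of the other groups. The count of called genes was 2 with DESeq2, which added Ms4a15 (lower), a gene with 1 read in all 7 libraries together, and 1 to 2 when 1 sample was left out (0 to 1 higher), since Pter was called without Rag2-/- 4. Genes at an unadjusted p below 0.05 numbered 199 at a mean of at least 1 CPM, 1416 in the fit of the 7 samples, 970 in that of the 11 non-stroked samples, 1491 with Ddx3y as a covariate and 218 without Rag2-/- 1 and 2. The median margin was 0.188 in the fit of the 7 samples and 0.49 without Rag2-/- 1 and 2. Genes with an interval inside 2-fold were fewest, 12197, without Rag2-/- 1 and 2.

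Replicate numbers 1 and 4 occur in both groups, but nothing says that they pair the samples. Deviations of same-numbered samples had low correlations over genes (r 0.0775 and 0.0826). These were still the highest of all pairs of a WT and a Rag2-/- library, of which the others ran from -0.122 to 0.0537. With the replicate number as a block over the 11 non-stroked samples 1 gene was called and 792 passed an unadjusted p below 0.05, and the log2 fold changes of the list sums moved beyond 1 SD to -0.19 for B cells, 0.19 for border-associated macrophages, -0.084 for excitatory and 0.10 for inhibitory neurons.

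With Ddx3y as a covariate list sums moved to 0.23 (B cell), -0.061 (pan-leukocyte), -0.27 (MHC class II), -0.16 (MHC class I), -0.21 (interferon-stimulated), -0.10 (cytokine receptor), 0.053 (V(D)J recombination), -0.12 (homeostatic microglia), -0.36 (activated microglia), -0.25 (border-associated macrophage), 0.26 (excitatory neuron), -0.40 (endothelial) and -0.39 (meningeal fibroblast). Without Rag2-/- 1 and 2 they moved to 0.29 (B cell), 0.26 (pan-leukocyte), -0.077 (interferon-stimulated), 0.048 (cytokine receptor), -0.37 (endothelial) and -0.27 (pericyte). Without WT 4 and WT 5 they moved to 0.84 (neutrophil and monocyte), -0.032 (inhibitory neuron) and -0.17 (choroid plexus). Leaving out 1 sample gave -0.49 to 0.21 for immediate early genes, -0.39 to 0.48 for the striatum, -0.074 to 0.64 for NK cells, -0.43 to 0.23 for neutrophils and monocytes, -0.12 to 0.42 for lymphocyte cytokines and -0.82 to -0.23 for the thalamus and monoamine list, and -0.011 to 0.030 for cytokine receptors, -1.502 to 0.28 for erythrocytes (lowest without Rag2-/- 4) and -11.6 to -1.23 for the Y-linked list, which was -8.09 with limma voom. For the endothelial and pericyte lists the same omission gave -0.18 to 0.040 and -0.13 to 0.053. For the B cell and interferon-stimulated lists it gave 0.0019 to 0.14 and 0.044 to 0.195. The causes were not tested.

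Groups of 3 and 4, confounding with sex and source, and WT libraries with other tissue limit every bound given. Bounds for lymphocyte genes at a few reads per library are wide, and the part of depth in this was not tested.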
